A study of Mus musculus with 15 samples.

Results

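H3K4me3, the trimethylation of lysine 4 of histone H3, was mapped by ChIP–seq in mBA cells, and the regions described here are the intergenic peaks, those that lie away from every annotated start site and gene. A peak was counted as intergenic when it lay on chromosomes 1 to 19, overlapped no window of 2000 bp either side of an annotated transcript start of any gene type, and had its summit in no annotated gene body. Of the 40117 peaks on these chromosomes in the 3 deposited lists, 494 were intergenic. Joined across lists by an overlap of 1 bp, they formed 319 regions of the 15110 regions that all peaks on chromosomes 1 to 19 formed. The closest member had its edge 2006 bp from a start site, and the farthest peak left out with its summit outside genes had its edge 1989 bp from one.

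The mBA cells are brown adipocytes that the labels call primary. The study's methods describe them as preadipocytes of mouse brown fat, immortalized with the SV40 large T antigen and differentiated in culture. WT cells were wild type and untreated, WT + 2HG cells were wild type and received a cell-soluble 2-hydroxyglutarate in DMSO, and CLPP-KO cells lacked the mitochondrial protease CLPP, were untreated and were grown with uridine because of their respiratory defect. Each condition had 4 ChIP samples and 1 input, and the labels name no vehicle treatment of the WT or CLPP-KO cells. The CLPP-KO cells differ from both other groups in genotype and in uridine, which cannot be told apart.

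The authors' peak caller took the 4 samples of each condition jointly. A peak therefore has 1 value, with no spread between replicates, and no test between samples could be made. The WT list held 11988 peaks on chromosomes 1 to 19, the WT + 2HG list 13668 and the CLPP-KO list 14461. The lists hold no read counts, so the depth behind a peak is unknown. Intervals given below are 95% Wilson or, for differences, Newcombe intervals. They cover counting error only, over peaks, which are not replicates. Over all 20604 coding genes of chromosomes 1 to 19, 59.7% had a promoter peak in CLPP-KO, 58.0% in WT + 2HG and 52.9% in WT. Of 13 brown adipocyte markers, 8 had a promoter peak in CLPP-KO, 7 in WT + 2HG and 4 in WT, among them Pparg, Cebpa, Cebpb and Prdm16 in all 3 lists. So few markers do not set the cells apart from that background. Fabp4, Adipoq, Ucp1, Ppargc1a and Dio2 had none in any list. Of the markers of other cell types, endothelial Kdr and neural Tubb3 had one in all 3 lists, neural Sox10 in CLPP-KO and WT + 2HG, and muscle Myod1 in CLPP-KO, while the 3 immune markers had none. Clpp had a promoter peak in all 3 lists, including CLPP-KO, and a peak list does not show whether the gene's product is made.

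H3K4me3 is laid down by the SET1 and MLL methyltransferase complexes, which CpG-rich DNA recruits through CXXC-domain proteins, and it is removed by the KDM5 demethylases, which need 2-oxoglutarate. Its peaks usually cover the CpG islands of gene starts. Away from them it is found at start sites missing from an annotation, at isolated CpG islands and at the start regions of transposable elements, and near silent developmental genes it can lie beside the H3K27me3 mark of Polycomb.

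The sequences below show what the groups of regions were made of. Each is a 300 bp window centred on the summit, in GRCm39, on the forward strand, with every CpG in capitals except in the first. They are the leading region by peak area of each combination of lists (for WT alone the second), with 4 further windows named where they are described.
Region in all 3 lists near Kics2, with the run of 42 cytosines in capitals, chr10:121599013-121599312: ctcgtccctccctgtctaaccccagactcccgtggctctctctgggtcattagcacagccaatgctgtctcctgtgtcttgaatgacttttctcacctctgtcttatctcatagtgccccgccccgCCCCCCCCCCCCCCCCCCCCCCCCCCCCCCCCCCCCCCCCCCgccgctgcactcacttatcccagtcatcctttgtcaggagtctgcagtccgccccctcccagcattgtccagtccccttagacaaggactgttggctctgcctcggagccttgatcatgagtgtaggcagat
The next region in all 3 lists, near Elf2, chr3:51266143-51266442: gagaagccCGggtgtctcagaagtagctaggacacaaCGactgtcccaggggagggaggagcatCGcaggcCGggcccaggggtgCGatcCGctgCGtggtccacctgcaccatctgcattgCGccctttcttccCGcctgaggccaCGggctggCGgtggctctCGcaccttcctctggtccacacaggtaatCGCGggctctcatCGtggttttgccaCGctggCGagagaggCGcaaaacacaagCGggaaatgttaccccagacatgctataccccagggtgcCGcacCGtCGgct
Region in WT + 2HG and CLPP-KO near Spred2, chr11:19870250-19870549: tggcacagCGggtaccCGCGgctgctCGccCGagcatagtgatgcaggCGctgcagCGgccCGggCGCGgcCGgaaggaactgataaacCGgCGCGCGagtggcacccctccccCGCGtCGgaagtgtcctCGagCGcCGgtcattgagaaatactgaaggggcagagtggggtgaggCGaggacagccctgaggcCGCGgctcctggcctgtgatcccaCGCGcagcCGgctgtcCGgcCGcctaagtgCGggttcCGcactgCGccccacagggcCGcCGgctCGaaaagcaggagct
Region in WT + 2HG and CLPP-KO near Wnt7b, chr15:85509943-85510242: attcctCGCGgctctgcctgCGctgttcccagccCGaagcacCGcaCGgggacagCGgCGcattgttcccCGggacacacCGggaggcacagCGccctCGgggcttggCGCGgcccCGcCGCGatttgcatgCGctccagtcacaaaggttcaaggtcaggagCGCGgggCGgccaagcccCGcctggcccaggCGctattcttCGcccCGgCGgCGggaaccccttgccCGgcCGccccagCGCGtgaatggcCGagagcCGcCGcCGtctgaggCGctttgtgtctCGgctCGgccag
Region in CLPP-KO only, upstream of Eya1, chr1:14576834-14577133: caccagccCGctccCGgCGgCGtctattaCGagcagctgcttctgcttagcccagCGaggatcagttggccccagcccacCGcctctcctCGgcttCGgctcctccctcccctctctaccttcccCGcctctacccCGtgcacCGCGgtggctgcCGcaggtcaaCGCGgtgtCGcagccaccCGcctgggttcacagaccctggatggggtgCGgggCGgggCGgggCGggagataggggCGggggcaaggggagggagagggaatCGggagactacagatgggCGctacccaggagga
Region in WT + 2HG only, near Tbx21, chr11:97017793-97018092: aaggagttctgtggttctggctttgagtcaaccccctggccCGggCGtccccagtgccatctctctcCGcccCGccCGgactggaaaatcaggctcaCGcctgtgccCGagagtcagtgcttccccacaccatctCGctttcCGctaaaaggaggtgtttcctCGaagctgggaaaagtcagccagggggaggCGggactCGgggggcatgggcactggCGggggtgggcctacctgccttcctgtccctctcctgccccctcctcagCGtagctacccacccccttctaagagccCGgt
Region in WT only, on the chromosome arm of Xkr4, chr1:3059665-3059964: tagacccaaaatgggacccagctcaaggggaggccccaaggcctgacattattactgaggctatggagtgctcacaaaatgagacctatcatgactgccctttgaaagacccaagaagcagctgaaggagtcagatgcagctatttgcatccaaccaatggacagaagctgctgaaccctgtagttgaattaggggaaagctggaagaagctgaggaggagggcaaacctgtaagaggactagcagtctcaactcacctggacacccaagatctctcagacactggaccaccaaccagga
Region in CLPP-KO only, first repeated sequence, chr1:141117757-141118056: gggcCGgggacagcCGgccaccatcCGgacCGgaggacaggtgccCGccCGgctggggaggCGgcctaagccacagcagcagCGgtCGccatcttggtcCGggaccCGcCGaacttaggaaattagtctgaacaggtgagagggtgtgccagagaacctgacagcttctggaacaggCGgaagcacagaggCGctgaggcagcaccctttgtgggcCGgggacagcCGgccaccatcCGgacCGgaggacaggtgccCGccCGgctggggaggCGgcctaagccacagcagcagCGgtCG
Region in CLPP-KO only, second repeated sequence, chr14:122762912-122763211: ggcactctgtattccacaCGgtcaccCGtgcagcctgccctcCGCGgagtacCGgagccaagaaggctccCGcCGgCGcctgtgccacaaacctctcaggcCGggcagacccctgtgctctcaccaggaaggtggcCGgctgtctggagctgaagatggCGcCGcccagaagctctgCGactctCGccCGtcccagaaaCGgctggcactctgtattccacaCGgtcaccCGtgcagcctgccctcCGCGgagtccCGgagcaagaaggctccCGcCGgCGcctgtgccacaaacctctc
The windows near Spred2 and Wnt7b hold 35 and 38 CpGs, and the WT-only window on chromosome 1 holds 0.

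Intergenic peaks made up a small share of every list. In WT there were 78 (0.651% of the list, 95% Wilson interval 0.522 to 0.811%), in WT + 2HG 175 (1.28%, 1.11 to 1.48%) and in CLPP-KO 241 (1.67%, 1.47 to 1.89%). The CLPP-KO share was 1.02 percentage points above that of WT (Newcombe interval 0.762 to 1.27) and the WT + 2HG share 0.630 points above it (0.392 to 0.870), while CLPP-KO and WT + 2HG differed by 0.386 points (0.104 to 0.669). When each list was limited to its 11988 peaks of largest area, the 3 shares were 0.651, 0.684 and 0.676%, so the difference was not present at equal length. That cut removes the smallest peaks of the 2 longer lists, where intergenic peaks are common, and no WT peak. With 1 limit for all lists the shares still differed. In WT, WT + 2HG and CLPP-KO they were 0.246, 0.550 and 0.654% at an area of at least 1000, although area is not scaled between lists. At a summit p of at most 1e-05 they were 0.460, 0.730 and 0.940%. Intergenic sequence by the same rule made up 37.2% of the sequenced bases of chromosomes 1 to 19.

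The intergenic peaks were small within their lists. Area is the authors' area under the curve of each peak, and because it is not scaled between lists it was turned into a percentile within its own list. The median intergenic peak stood at the 13.1 percentile in WT (quartiles 7.09 and 23.7), at 11.3 in WT + 2HG (4.17 and 23.6) and at 11.7 in CLPP-KO (4.25 and 23.1). The median promoter peak stood at 51.9, 52.7 and 53.7, respectively. Of the intergenic peaks, 75 of 78 in WT, 169 of 175 in WT + 2HG and 231 of 241 in CLPP-KO lay below the median area of their list. They were also narrow, with a median width of 405 bp in CLPP-KO, 442 bp in WT + 2HG and 453 bp in WT, against 897, 912.5 and 838 bp at promoters. Intragenic peaks away from start sites were of similar rank, with median percentiles of 13.4, 11.1 and 13.5.

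**Figure D1:**
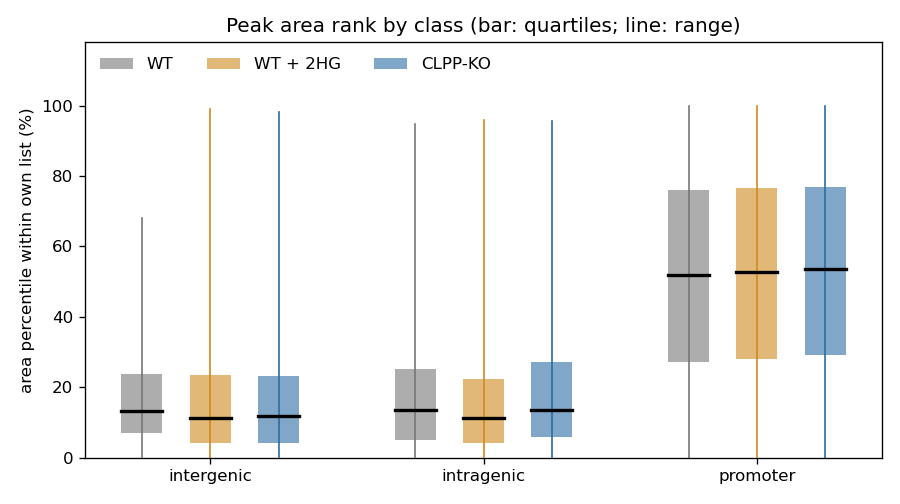
Area percentile of each peak within its own list (y axis, %) for intergenic, intragenic and promoter peaks (x axis) of WT, WT + 2HG and CLPP-KO; bars span the quartiles, thick lines mark the median and thin lines the full range. The intergenic medians lie at 13.1, 11.3 and 11.7%, far below the promoter medians of 51.9, 52.7 and 53.7%, although single intergenic peaks reach 99.1% in WT + 2HG and 98.3% in CLPP-KO.

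In the lists as deposited, CLPP-KO alone held 123 of the 319 regions (38.6%, 95% Wilson interval 33.4 to 44.0%), WT + 2HG alone 62 (19.4%, 15.5 to 24.1%) and WT alone 19 (5.96%, 3.85 to 9.12%). CLPP-KO and WT + 2HG shared 57 regions without WT (17.9%, 14.1 to 22.5%), and all 3 lists shared 56 (17.6%, 13.8 to 22.1%). WT and CLPP-KO shared 2, and WT and WT + 2HG 0. Cut to equal length, which removes small peaks of the 2 longer lists and none of WT, the lists gave 121 regions. Of these 45 were in all 3, 25 in WT alone, 12 in CLPP-KO alone and 11 in WT + 2HG alone. With 1 limit for all lists the order of the single-list groups did not turn. CLPP-KO alone, WT + 2HG alone and WT alone held 20, 6 and 0 regions at an area of at least 1000. At a summit p of at most 1e-05 they held 36, 8 and 1. Among the 15110 regions of all peaks on these chromosomes, 72.0% were in all 3 lists, 11.2% in both CLPP-KO and WT + 2HG without WT, 9.76% in CLPP-KO alone, 4.69% in WT + 2HG alone and 1.03% in WT alone.

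Peaks were called absent from WT where no WT peak of any class shared a base with them. Of the 241 intergenic CLPP-KO peaks, 183 were absent from WT (75.9%, 70.2 to 80.9%), and of the 175 intergenic WT + 2HG peaks 119 (68.0%, 60.8 to 74.5%). Over all peaks on chromosomes 1 to 19, 22.6% of CLPP-KO peaks and 18.3% of WT + 2HG peaks overlapped no WT peak. In the other direction, 19 of the 78 intergenic WT peaks were absent from CLPP-KO (24.4%, 16.2 to 34.9%) and 21 from WT + 2HG (26.9%, 18.3 to 37.7%), against 2.24 and 2.51% of all WT peaks. The comparisons share the WT list.

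The share absent from WT fell with peak area in every class. In the lowest 25% of the CLPP-KO list by area, 165 of 186 intergenic peaks were absent from WT (88.7%, 83.4 to 92.5%), against 69.3% of the promoter peaks there (67.6 to 71.0%). In the next 25% the shares were 40.0% (18 of 45, 27.0 to 54.6%) and 18.5%, and above the list median 0 of 6 and 0 of 4 were absent in the 2 upper bins. In WT + 2HG the lowest 25% gave 113 of 134 intergenic peaks (84.3%, 77.2 to 89.5%) and 61.4% of promoter peaks (59.6 to 63.1%). The next 25% gave 6 of 35 (17.1%, 8.10 to 32.7%) and 9.30% (8.35 to 10.3%), whose intervals overlap. In the lowest 25% of both lists, intergenic peaks were absent from WT more often than promoter peaks. They were absent about as often as intragenic peaks, at 87.6% in CLPP-KO and 82.1% in WT + 2HG. The intergenic and promoter intervals do not overlap, but they cover counting error only, over peaks that are not replicates. Peaks were not matched for area inside the lowest 25%, nor for CpG content or other copies in the genome. Whether the class itself makes the difference was not tested. Limited to equal lists, 42.0% of intergenic CLPP-KO peaks and 39.0% of intergenic WT + 2HG peaks were absent from WT. The share over all peaks of the cut lists is not given, so whether these shares stand out cannot be told.

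**Figure D2:**
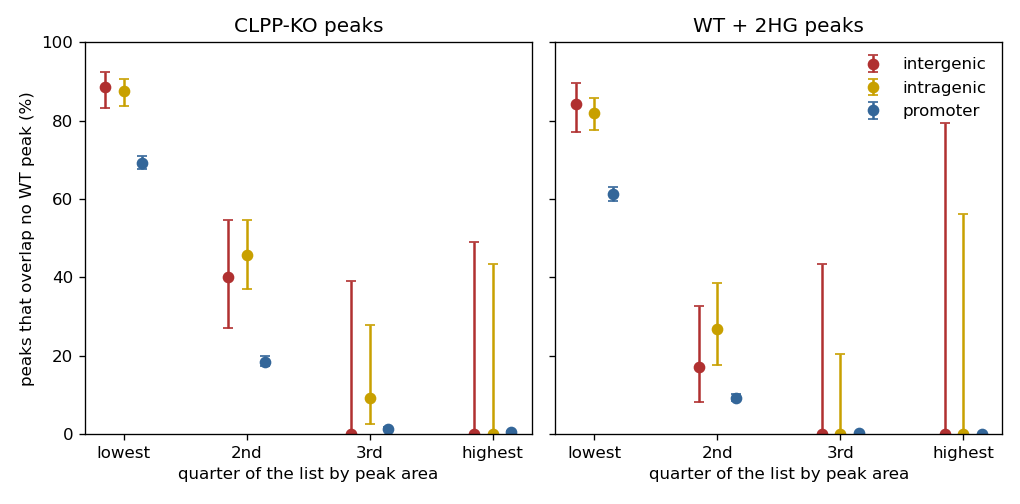
Share of peaks that overlap no WT peak (y axis, %) in each 25% of the CLPP-KO list (left) and the WT + 2HG list (right) by peak area (x axis), for intergenic, intragenic and promoter peaks, with 95% Wilson intervals. In the lowest 25% the intergenic share is 88.7% in CLPP-KO and 84.3% in WT + 2HG, above promoter shares of 69.3 and 61.4%; few intergenic peaks lie in the upper bins, and their intervals there are wide.

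The regions in all 3 lists were the strongest. Their median percentile was 32.5 in CLPP-KO, 29.1 in WT + 2HG and 19.9 in WT. The percentile was higher in CLPP-KO than in WT at 50 of the 56 regions, and higher in WT + 2HG than in WT at 44. The WT list is the shortest, and extra small peaks in a longer list by themselves raise the percentile of the peaks above them. How much of the difference this makes was not tested. The matching counts over all 10877 regions in all 3 lists are not given. The summits of the CLPP-KO and WT peaks lay at a median of 62 bp from each other, and 39 of 56 pairs lay within 100 bp. The 57 regions of CLPP-KO and WT + 2HG stood at medians of 17.9 and 14.1, the 123 of CLPP-KO alone at 4.82, the 62 of WT + 2HG alone at 3.25 and the 19 of WT alone at 3.13. No region of the single-list combinations lay above the median of its list.

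The largest region by WT area was the run of cytosines near Kics2, a subunit of the KICSTOR complex that restrains mTORC1. The peak was 61 bp wide in CLPP-KO, 63 bp in WT + 2HG and 60 bp in WT. Its percentile was 98.3, 99.1 and 68.0, and its summit −log10 p was 641, 657 and 113, respectively, whereas the median summit −log10 p of the regions in all 3 lists was 12.0, 10.2 and 6.26. The window had a GC content of 62.3% and a CpG ratio of 0.338. Runs of at least 20 identical bases occurred in 9 of the 319 regions and of at least 35 in 3, this one included. Whether the run bears on the height of the peak was not tested.

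The other 4 leading regions in all 3 lists by WT area were CpG-rich. The region at chr3:51265908-51266713 lay 18051 bp upstream of Elf2, an Ets-family transcription factor, at percentiles of 50.3 in CLPP-KO, 60.5 in WT + 2HG and 54.4 in WT. A region 13789 bp upstream of Haao, an enzyme of tryptophan breakdown, stood at 57.1, 48.9 and 52.9, and neither Haao nor Zfp469, whose neighbouring region lay 28078 bp upstream at 70.0, 67.2 and 49.1, had a promoter peak in any list. The region 21178 bp upstream of Tcf12, a partner of tissue-specific basic helix–loop–helix factors, stood at 54.9, 52.5 and 44.7. By CLPP-KO area, other regions followed that near Kics2, named here after their values were seen. A pair with H2-Q10, a class I histocompatibility gene, as nearest coding gene stood at percentiles of 94.8 and 93.9 in CLPP-KO, against 35.5 and 43.1 in WT + 2HG and 40.7 and 33.6 in WT. They are the 2 regions in all 3 lists with another copy in the genome. The next, near Spag6, had an area of 11890 in CLPP-KO, 9318 in WT + 2HG and 2473 in WT, which are not scaled between lists.

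The leading region of CLPP-KO and WT + 2HG without WT, at chr11:19869870-19870812, was 3955 bp upstream of Spred2, an inhibitor of Ras and MAPK signalling, at percentiles of 46.2 in CLPP-KO and 36.6 in WT + 2HG. The region 9503 bp upstream of Sp8, a zinc-finger factor of limb and brain patterning, stood at 36.7 and 27.5, and Sp8 itself had a promoter peak in every list but that of WT. The region 43419 bp upstream of Wnt7b, a Wnt ligand, stood at 35.6 and 21.8. A region 52330 bp downstream of the start of Snx10, a sorting nexin, stood at 44.7 and 29.7. The last of the 5, at chr12:114342317-114342978, lay 835216 bp from the nearest coding start, that of Adam6a, at 32.5 and 20.3. Its nearest start of any type was that of the immunoglobulin V gene Ighv12-3, at 12170 bp, and it had 1 other copy in the genome. The percentile was higher in CLPP-KO at 45 of the 57 regions. The CLPP-KO list is the longer of the 2, which can by itself raise a percentile, and its part was not tested. The matching count over all 1685 regions in these 2 lists without WT is not given.

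Among the regions of CLPP-KO alone, the strongest, at chr1:14576615-14577413, lay 196441 bp upstream of Eya1, a transcriptional coactivator of organ development, at percentile 35.9. The next 4 stood between 18.3 and 21.4 and had as nearest coding genes Nfe2l3, a stress-response transcription factor at 263740 bp, Shc3, a signalling adaptor at 25580 bp, Tfap2c, an AP-2 transcription factor at 176268 bp, and Arhgap27 at 21232 bp. None of these 5 had another copy in the genome, and all 5 were CpG-rich. The 3 leading regions of WT + 2HG alone lay near Tbx21, the T-bet factor of T cells (11785 bp, percentile 15.3), Hoxc12 (6228 bp, 10.4) and Jag2, a Notch ligand (19612 bp, 9.69). The Hoxc12 region overlapped a CLPP-KO peak of another class, as 2 of the 62 regions did. None of the 123 CLPP-KO-only or 57 shared regions overlapped a WT peak of any class, and the median gap to the nearest WT peak was 78120 and 33950 bp, respectively.

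The sequence under the summits differed between the combinations. A window was called CpG-island-like when its GC content was at least 50% and its CpG ratio, the number of CpGs observed over that expected from its C and G content, at least 0.6. This held for 0.374% of the 2954026 windows of 300 bp into which all intergenic sequence was cut. It held for 41 of the 56 regions in all 3 lists (73.2%, 95% Wilson interval 60.4 to 83.0%), 40 of the 57 in CLPP-KO and WT + 2HG (70.2%, 57.3 to 80.5%), 61 of the 123 in CLPP-KO alone (49.6%, 40.9 to 58.3%), 19 of the 62 in WT + 2HG alone (30.6%, 20.6 to 43.0%) and 0 of the 19 in WT alone (0 to 16.8%). The median GC content was 67.7, 67.0, 61.7, 57.7 and 48.7% in the same order, and 40.0% over all intergenic windows. The WT-only regions held few CpGs, with a median ratio of 0.0759 against 0.130 over all intergenic windows, and none of their 19 ratios exceeded 0.482. Promoter peaks were CpG-island-like in 87.7% of cases in CLPP-KO, 86.2% in WT + 2HG and 84.0% in WT.

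**Figure D3:**
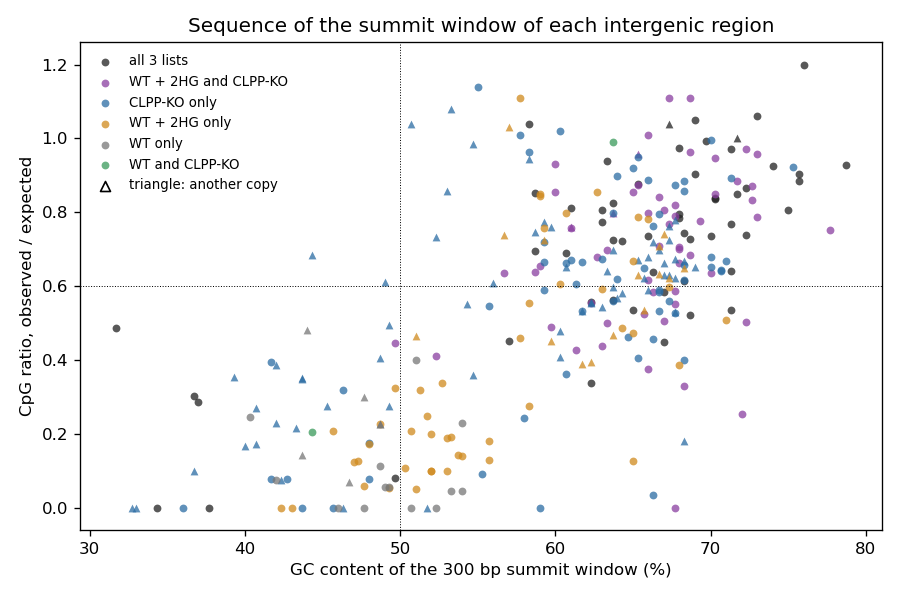
GC content (x axis, %) and CpG ratio (y axis) of the 300 bp window at the summit of each of the 319 regions, coloured by the lists that hold the region; triangles are windows with another copy in the genome, and dotted lines mark 50% and 0.6. Regions in all 3 lists and in both CLPP-KO and WT + 2HG gather in the upper right, while the 19 WT-only regions lie at a GC content of 54.0% or less and a ratio of 0.482 or less.

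Short motifs were counted on both strands. GGGCGG, the GC box bound by Sp-family factors, was found on either strand in 57.1% of the windows in all 3 lists, 56.1% of those in WT + 2HG with CLPP-KO, 46.3% in CLPP-KO alone, 27.4% in WT + 2HG alone and 0% in WT alone, against 61.4 to 64.5% of promoter peaks, 26.6% of the CpG-island-like intergenic windows and 1.90% of all intergenic windows. CNAGNGGGC, letters from the core of the CTCF site, occurred in 10.7, 15.8, 4.88, 3.23 and 10.5% in the same order, against 2.52% of the CpG-island-like and 1.52% of all intergenic windows. CCAAT was found in 21.4 to 47.4% of the windows and in 44.1% of all intergenic windows, TGANTCA of the AP-1 site in 3.57 to 7.32% against 8.87%, and TTGCNNAA of the C/EBP site in 3.23 to 21.1% against 14.7%. TGACGTCA, the cyclic AMP response element, was found in 1 region each of CLPP-KO alone and of CLPP-KO with WT + 2HG, and in 8.36% of the CpG-island-like and 0.138% of all intergenic windows. CNAGNGGGC and GGGCGG can share the letters GGGC.

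Many of the regions held by a single list were copies of repeated sequence. Each window was searched against the genome for other places with at least 95% identity over at least 80% of its length. A copy of this kind existed for 63 of the 123 regions of CLPP-KO alone (51.2%, 95% Wilson interval 42.5 to 59.9%), 15 of the 62 of WT + 2HG alone (24.2%, 15.3 to 36.2%) and 6 of the 19 of WT alone (31.6%, 15.4 to 54.0%). It existed for 2 of the 56 regions in all 3 lists (3.57%, 0.985 to 12.1%) and 3 of the 57 in CLPP-KO and WT + 2HG (5.26%, 1.81 to 14.4%). The intervals of the CLPP-KO-only regions and of the shared ones do not overlap. The median number of other copies was 572 in the 63 regions of CLPP-KO alone, and 40 of them had at least 100. Counted over peaks of whole lists, 28.2% of intergenic CLPP-KO peaks, 12.0% of WT + 2HG peaks and 12.8% of WT peaks had a copy. Among intragenic peaks the shares were 12.4, 4.94 and 4.97%, in the same order.

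**Figure D4:**
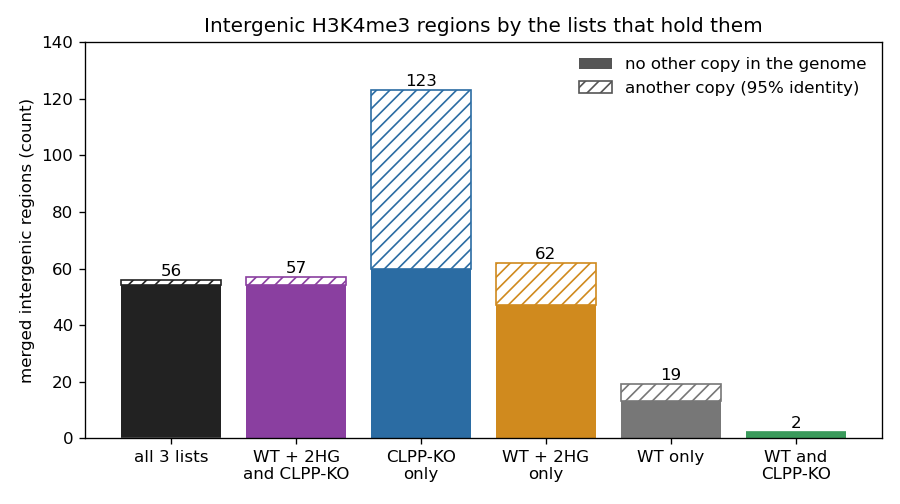
Number of merged intergenic regions (y axis) held by each combination of lists (x axis), with hatching for regions whose 300 bp summit window has another copy in the genome. CLPP-KO alone holds 123 regions, of which 63 are hatched, while 2 of the 56 regions in all 3 lists are.

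Joined at an identity of at least 85% over at least 100 bp, the copied windows formed 7 families of related sequence. The largest had 19 regions, 13 in CLPP-KO alone and 6 in WT + 2HG alone, on 7 chromosomes, with 572 to 5364 other copies each. Its windows, of which the chr1:141117757-141118056 sequence is one, had a median GC content of 64.3% and repeated themselves: shifted by a median of 212 bp they matched in 97.7% of positions. The second had 15 regions, 12 in CLPP-KO alone and 3 in WT + 2HG alone, on 9 chromosomes, with 941 to 1373 other copies and a median GC content of 67.0%. The chr14:122762912-122763211 sequence belongs to it, and its windows matched themselves in 98.9% of positions at a median shift of 206 bp. No region of either family was in the WT list or in more than 1 list. No repeat annotation was used here, so the families are given by sequence and not by name. A read from such a copy can map to several places, and no filter on mapping quality is given in the sources used here, so which copy carried the mark cannot be told from these lists.

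When peaks with a copy were left out of all 3 lists, CLPP-KO alone held 61 regions in place of 123, against 54 in WT + 2HG and CLPP-KO, 53 in all 3 lists and 47 in WT + 2HG alone. Of the intergenic peaks without a copy, 117 of 173 in CLPP-KO (67.6%, 60.3 to 74.2%) and 100 of 154 in WT + 2HG (64.9%, 57.1 to 72.0%) overlapped no WT peak. The matching share over all peaks without a copy is not given. Of the 60 regions of CLPP-KO alone without a copy, 33 were CpG-island-like (55.0%), and their median percentile was 6.97, against 3.77 for the 63 with one.

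The regions lay closer to genes than intergenic sequence in general. The median distance from summit to the nearest start site of any type was 7340 bp for regions in all 3 lists, 8426 bp for those in CLPP-KO and WT + 2HG, 12390 bp for CLPP-KO alone, 12750 bp for WT + 2HG alone and 13020 bp for WT alone, and 20750 bp over all intergenic windows. To the nearest coding start the medians were 17020, 21470, 32710, 30470 and 39150 bp, against 140200 bp. Over the CpG-island-like windows of the intergenic genome the medians to any and to a coding start were 18050 and 87910 bp. The nearest start belonged to a long noncoding RNA for 148 of the 319 regions, to a coding gene for 99 and to a processed pseudogene for 38. The nearest coding gene had a promoter peak in CLPP-KO for 68.7% of the regions, in WT + 2HG for 66.5% and in WT for 56.4%. Over all intergenic windows the shares were 61.3, 57.6 and 49.6%, and over all 20604 coding genes 59.7, 58.0 and 52.9%. A gene nearest to several regions counts once for each.

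Genes of the developmental regulator families were the nearest coding genes of several regions that WT lacked, at distances from 2310 bp (Foxl1) to 210864 bp (Foxd3). The list held 187 genes on chromosomes 1 to 19, among them the Hox, Fox, Sox, Pax, Nkx, Lhx, Irx, Tbx, Gata, Wnt, Dlx and Msx genes, most of which encode transcription factors that set body pattern and tissue identity and are held silent by Polycomb in cells that do not use them. A gene of the list was the nearest coding gene for 25 of the 319 regions (7.84%, 95% Wilson interval 5.36 to 11.3%). Such a gene was nearest to 1.55% of all intergenic windows and to 1.92% of the CpG-island-like ones. The list was chosen with earlier results of these data known, so the excess is a description and not a test. The 25 regions have 22 nearest genes, and the interval counts regions of the same gene as separate. By combination the count was 9 of 57 in CLPP-KO and WT + 2HG (15.8%, 8.54 to 27.4%), 11 of 123 in CLPP-KO alone (8.94%, 5.07 to 15.3%), 4 of 62 in WT + 2HG alone (6.45%, 2.54 to 15.5%), 1 of 56 in all 3 lists (1.79%, 0.316 to 9.45%) and 0 of 19 in WT alone. None of the 25 regions had another copy in the genome, and among the 60 regions of CLPP-KO alone without a copy the 11 were 18.3% (10.6 to 29.9%).

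The homeobox genes of the Msx and Dlx families had several. Msx3 had 2 regions, both in CLPP-KO and WT + 2HG. The one 9133 bp upstream stood at percentile 29.1 in CLPP-KO and 16.9 in WT + 2HG. The one 12274 bp upstream stood at 15.2 and 14.9, in the same order, and the Msx3 promoter had a peak in every list but that of WT. Msx2 had a region 2999 bp upstream, at 25.2 and 19.8. Dlx2 had a region 2824 bp downstream of its start, at 11.8 and 6.49, and one 34484 bp upstream, at 25.5 and 15.7. Both Msx2 and Dlx2 had a promoter peak in all 3 lists. A region 103346 bp downstream of the start of Irx5 stood at 17.5 in CLPP-KO and 10.2 in WT + 2HG. The region 74261 bp upstream of Sox17, a factor of endoderm and endothelium, stood at 22.9 in CLPP-KO and 6.94 in WT + 2HG, and Sox17 had no promoter peak in any list.

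In CLPP-KO alone the nearest genes were Msx1 (percentile 16.3), Hoxc4 with 2 regions (8.48 and 16.2), Lhx1 (13), Foxi3 (11.9), Irx2, Dlx3, Hoxa13, Lhx8, Foxd3 and Foxl1, the last 6 between 0.701 and 4.07. The starts of Foxd3, Lhx1, Lhx8 and Foxi3 lay 210864, 117020, 84719 and 56761 bp away. That of Hoxc4 lay 35056 and 51880 bp away, and the others 2310 to 7279 bp. In WT + 2HG alone they were Tbx21, Hoxc12, Pax9 and Foxa2. The 1 region in all 3 lists lay 36990 bp downstream of the start of Foxd1, a factor of kidney stroma, at percentiles of 23.0 in both CLPP-KO and WT + 2HG and 2.07 in WT. Of the 22 developmental regulator genes nearest to a region, Tbx21, Hoxc12, Irx2, Lhx8, Foxd3, Foxi3, Msx3 and Foxl1 had a promoter peak in CLPP-KO and none in WT. Over all 20604 coding genes, 59.7% had one in CLPP-KO and 52.9% in WT. The nearest coding gene had one in CLPP-KO or WT + 2HG and not WT for 41 of all 319 regions. The same held for 368744 of the 2954026 intergenic windows.

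**Figure D5:**
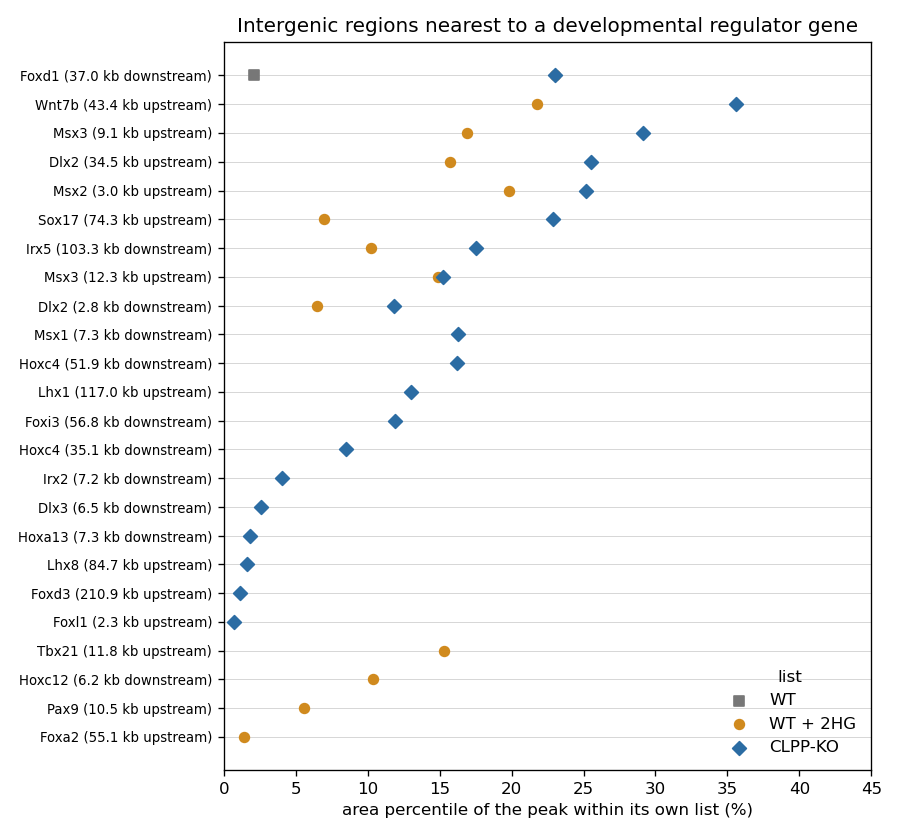
Area percentile within its own list (x axis, %) of each intergenic peak whose nearest coding gene belongs to the developmental regulator families (y axis, with the distance from summit to start and its side); squares are WT, circles WT + 2HG and diamonds CLPP-KO. 1 of the 25 regions is not shown. Of those shown, 11 have a diamond alone and 4 a circle alone, and only the Foxd1 region has a WT value, at 2.07%, and its circle is hidden by its diamond at 23.0%.

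None of 34 brown adipocyte genes, 18 of the integrated stress response and 19 of serine, one-carbon and 2HG metabolism was the nearest coding gene of a region. These lists were nearest to 0.310, 0.0423 and 0.0449% of intergenic sequence, so 319 regions cannot show whether they are lacking. Of 22 genes of lipid and cholesterol metabolism, 1 was: Scd2, a stearoyl-CoA desaturase, with a region 8786 bp upstream of its start at percentiles of 6.12 in CLPP-KO and 13.7 in WT + 2HG, and no WT peak. Scd2 had a promoter peak in all 3 lists. Of 7 neural genes 1 was, Neurog1, a proneural factor, with a region of CLPP-KO alone 30480 bp from its start. No gene of the muscle, immune and endothelial lists, of 10, 5 and 4 genes, was.

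Several WT-only regions lay in clusters. When regions within 100 kb of each other were chained, 56 of the 319 fell into 23 clusters. The largest had 5 regions over 153 kb of chromosome 5, at chr5:145550548-145703720 among Cyp3a41a, Cyp3a41b and Cyp3a44, which encode cytochrome P450 enzymes of the liver, 4 of them in WT alone and 1 in CLPP-KO alone. The area percentiles of the 4 ran from 1.01 to 6.93, and all 4 windows had another copy, 1 for 3 of them and 13 for the other. A cluster of 4 on chromosome 4 lay among the Mup genes, which encode major urinary proteins (3 in WT alone and 1 in WT + 2HG alone), and one of 4 lay at chr3:3162249-3286293 with Hnf4g as nearest coding gene (3 in WT alone and 1 in CLPP-KO alone). Of the 19 WT-only regions, 5 lay within 1 Mb of the first sequenced base of their chromosome. They came from 2 clusters, 3 from that on chromosome 3 and 2 from one on chromosome 1, so they are not separate places. The counts were 2 of 123 in CLPP-KO alone, 1 of 62 in WT + 2HG alone and 0 of 56 in all 3 lists. The share of intergenic sequence this near is not given. The strongest WT-only region was near Smim3 on chromosome 18, at percentile 17.8, and the 2 next, on chromosome 1 with Xkr4 as nearest coding gene at 226040 and 223111 bp, stood at 12.0 and 9.99 and held 0 CpGs.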

How the data were processed

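H3K4me3 ChIP–seq was analysed in 12 ChIP samples and 3 inputs of mBA cells, as 1 peak list per condition. The authors trimmed reads with fastp 0.23.4, aligned them with BWA 0.7.17 to GRCm39 and called peaks with Genrich 0.6.1, which combined the p-values of the 4 samples by Fisher's method against the condition's input. The deposited lists give a score capped at 1000, an area under the curve (the signal column) and the −log10 p of the summit, and the q field is -1 throughout. The stated calling command leaves out chromosomes X and Y and sets a lower minimum area than the lowest in the lists, 200.0, and the lists hold X and Y peaks, so they do not match it. Replicates, depth and read counts cannot be recovered from them.

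Peaks were classed against GENCODE M39 with Python 3.11.15, and 0 peaks lay beyond the end of a reference chromosome. The overlap step was compared with bedtools 2.31.1 on simulated peaks. Copies were searched with BLAST+ 2.17.0. Shares have 95% Wilson intervals and differences Newcombe intervals. The classing, the overlap of lists and the Wilson interval were tested on simulated data, and the Newcombe interval was not. The members and gene lists were chosen with earlier results of these data known, and the search for copies and families was added after seeing the data. Regions were named by area: the 5 largest by WT area in all 3 lists, the 5 largest by CLPP-KO area in CLPP-KO only and in CLPP-KO with WT + 2HG, the 3 largest in WT + 2HG only and in WT only, and the largest cluster. The other clusters were named after their values were seen. 1 gene of the developmental regulator list is counted but not reported by name here.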

Additional observations from a re-analysis of the deposited data

Results flagged for a closer look

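Intergenic peaks by the same rule were also present on chromosome X, which the regions above leave out. They numbered 20 of 413 peaks for CLPP-KO (4.84%, 95% Wilson interval 3.16 to 7.36%), 10 of 383 for WT + 2HG (2.61%, 1.42 to 4.74%) and 8 of 276 for untreated WT (2.90%, 1.48 to 5.61%). The numbers of CLPP-KO and WT + 2HG were above that of WT, but the WT + 2HG share was not, and all 3 intervals overlap. The difference was not tested, since each condition has 1 list.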

How the results depend on the processing

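The lists have no replicates and no depth, which limits every comparison to presence, rank and sequence. No paired analysis was possible because the peak caller joined the 4 samples of each condition, so no sample could be left out either. The alternative that left out repeat-masked windows was not run, since the reference carries no repeat mask. Of 149 values under alternatives, 77 moved by less than their error or within 1.5 times and 72 moved further, and the cause was not tested unless the alternative itself removes members. No absent share under an alternative has the share over all peaks beside it.

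With lists of equal size the shares were 0.676% for CLPP-KO and 0.684% for WT + 2HG, 42.0 and 39.0% of their intergenic peaks were absent from WT, and 121 regions remained, 21 shared by CLPP-KO with WT + 2HG, 45 in all 3 lists, 12 in CLPP-KO only, 11 in WT + 2HG only, 25 unique to WT and 5 that WT shared with WT + 2HG alone. Under this cut, which removes no WT peak, WT alone was the largest single-list group, in place of CLPP-KO alone. Single-list regions were fewer than shared ones here, at an area of at least 1000 and at a summit p of at most 1e-05, but not in the lists as deposited. At an area of at least 1000 the shares in WT, WT + 2HG and CLPP-KO were 0.246, 0.550 and 0.654%, with 83 regions, 22 in all 3 lists, 34 shared by CLPP-KO with WT + 2HG, 20 in CLPP-KO only, 6 in WT + 2HG only, 0 in WT only and 1 shared by WT with CLPP-KO. At a summit p of at most 1e-05 the shares were 0.460, 0.730 and 0.940%, the absent shares 61.5% for CLPP-KO and 48.9% for WT + 2HG, and of 126 regions 35 were shared by CLPP-KO with WT + 2HG, 36 in CLPP-KO only, 8 in WT + 2HG only and 1 in WT only, with 1 that WT shared with CLPP-KO alone and 1 with WT + 2HG alone.

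With coding start sites only, the shares were 1.07, 1.77 and 2.28%, the absent shares 60.7 and 69.7%, the median distance to a start 26900 bp, and 89 regions were in all 3 lists, 30 in WT only, while WT shared 6 with CLPP-KO alone and 2 with WT + 2HG alone. With coding start sites and coding gene bodies only, the shares were 4.13, 6.04 and 7.07%, the absent shares 47.3 and 57.3%, and of 1201 regions 414 were in all 3 lists, 240 shared by CLPP-KO with WT + 2HG, 339 in CLPP-KO only, 146 in WT + 2HG only and 37 unique to WT, while WT shared 15 with CLPP-KO alone and 10 with WT + 2HG alone. With a promoter window of 5000 bp the shares were 0.450, 0.900 and 1.21%, with 34 regions in all 3 lists, 37 shared by CLPP-KO with WT + 2HG and 1 in WT and WT + 2HG. A window of 1000 bp gave 3 in WT and WT + 2HG, and merging within 1000 bp gave 1 in WT and CLPP-KO.

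Among alternatives added after seeing the data, leaving peaks with another copy out of all 3 lists, WT included, gave 61 regions in CLPP-KO only and an absent share of 68.2% in CLPP-KO. CpG-island-like peaks gave 171 regions, 36 in all 3 lists, 36 shared by CLPP-KO with WT + 2HG, 68 in CLPP-KO only, 25 in WT + 2HG only and 1 unique to WT, while WT shared 4 with CLPP-KO alone and 1 with WT + 2HG alone.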
